A study of Mus musculus with 8 samples.

Results

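The genes described here are the p53 family and a set of p53-linked genes in mouse mammary tumor cells. They were Trp53, Trp63 and Trp73, which encode p53 and its relatives p63 and p73, and Trp53inp1, Mdm2, Ccng1, Phlda3, Zmat3 and Sesn1, which are known p53 target genes. The members were taken by symbol from the table of gene counts, and they are 9 of its 53697 genes. They were chosen by measured values, because earlier results of these same libraries were known when the list was drawn up. Their levels and differences are therefore given as a description. How many members passed the threshold of the fit over all genes is printed only beside the share of all genes that did, and supports nothing about them.

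RNA came from mammary tumors of MMTV-PyMT mice, in which the polyoma middle T antigen is driven by the MMTV promoter in mammary epithelium. All 4 mice carried this transgene and a reporter of the Notch ligand Dll1. GFP mouse 1 and GFP mouse 2 were PyMT-Dll1GFP mice with a GFP-IRES-Cre-ERT2 knock-in at Dll1, and mCh mouse 1 and mCh mouse 2 were PyMT-Dll1mCh mice with a BAC-based mCherry reporter. Cells labelled by CD45, CD31 or ter119 antibodies were sorted out, and reporter-positive (Dll1+) and reporter-negative (Dll1-) cells were collected from each mouse, which gave 2 mice per reporter and 8 libraries. No treatment is named for them, and their ages were not given in the sources used here.

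p53 is a transcription factor that is stabilised by DNA damage and other stress and that switches on genes of cell-cycle arrest, DNA repair and cell death. Mdm2 is both its target and the ubiquitin ligase that marks it for degradation. p63 and p73 bind closely related DNA sites, and each is made as a TA form from an upstream start and as a deltaN form, without the activation domain, from an internal start. In the mammary gland deltaN p63 marks and maintains basal cells, while p73 is best known for multiciliated cells and neurons.

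The library totals ranged from 27301396 to 123907626 counts, and the 2 deepest libraries were those of mCh mouse 1. Levels are given as CPM, counts scaled to a common library total (TMM normalization). Dll1 itself had 7.61 and 13.7 CPM in the Dll1- and 87.5 and 138 CPM in the Dll1+ libraries of the GFP mice, and 34.8 and 50.3 CPM against 204 and 250.2 CPM in the mCh mice, so that the Dll1+ libraries were the higher ones in each mouse. The summed level of 7 epithelial markers lay between 5356 and 8937 CPM in every library. The summed level of 9 fibroblast markers was 1010 to 1241 CPM in the GFP libraries, 7926 to 22080 CPM in the mCh Dll1- libraries and 3072 to 3323 CPM in the mCh Dll1+ libraries. Immune markers summed to 64.5 to 86.1 CPM, 338 to 375 CPM and 152 to 170 CPM in the same order.

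DNA next to the start sites of the members is shown first, since the p53 family acts through it. A p53 response element is a pair of 10-letter sites. RefSeq start windows of GRCm38.p6, from 250 bases before to 50 bases after a start, were found for 6 members, in 8 windows, and they were searched for the p53 consensus decamer, which reads the same on both strands. A decamer without a letter off the consensus stood in 4 of the 8 windows, those of Trp53, Mdm2, Ccng1 and the downstream start of Sesn1, and in 8.36% of all 32851 windows. No member's window held 2 such decamers at a spacing of up to 13 bases, which 0.0731% of all windows did. Trp63, Trp53inp1 and Zmat3 had no window. The following stretches of 60 bases are shown because they hold the decamer, in capitals, for the p53 gene itself, its inhibitor and a target, at chr11:69580259-69580318 on the plus strand, chr10:117710910-117710969 on the minus strand and chr10:41887241-41887300 on the plus strand.
Trp53: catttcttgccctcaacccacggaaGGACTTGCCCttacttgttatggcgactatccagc
Mdm2: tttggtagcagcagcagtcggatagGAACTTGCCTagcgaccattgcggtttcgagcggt
Sesn1: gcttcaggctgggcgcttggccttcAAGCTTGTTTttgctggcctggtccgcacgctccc

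The decamers began 75 bases before the start of Trp53, 186 before that of Mdm2 and 173 before the downstream start of Sesn1. A looser search, added after the sequences had been seen, asked for 2 decamers side by side with at most 1 letter off the consensus in each. It matched 2 windows of members, those of Ccng1 and of the internal start of Trp73, and 0.466% of all windows. Both are shown, since Trp73 is the member with the widest range of levels, and the capitals mark the 20 letters of the pair. They lie at chr11:40755422-40755521 and chr4:154097180-154097279, both on the minus strand.
Ccng1: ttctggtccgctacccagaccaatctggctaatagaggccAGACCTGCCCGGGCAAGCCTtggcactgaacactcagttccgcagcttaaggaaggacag
Trp73: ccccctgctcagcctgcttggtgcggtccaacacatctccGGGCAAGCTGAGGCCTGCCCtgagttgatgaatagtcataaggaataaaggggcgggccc

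The pair began 195 bases before the start of Ccng1 and 66 bases before the internal start of Trp73. That internal window lies within the span of Trp73 and within that of Trp73os, an antisense gene on the opposite strand, which had 0 counts in every library. Of the other annotated genes that overlap a member, Gm24928, Gm27005 and Gm26036 had 0 counts in every library and 9930024M15Rik, inside Sesn1, had at most 2. A match of letters is a description of the window and not a measurement of binding.

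The 3 family genes had very unlike levels. On the scale of CPM per kilobase of exon, which allows levels of different genes to be compared, Trp53 had a mean level of 30.3, Trp63 of 3.48 and Trp73 of 0.0872 over the 8 libraries. Among all members the order of mean level per kilobase was Trp53, Ccng1 (27.9), Trp53inp1 (26.2), Phlda3 (14.2), Mdm2 (10.9), Sesn1 (4.93), Trp63, Zmat3 (2.64) and Trp73. Mdm2 was above Sesn1, and Zmat3 above Trp73, in 8 of 8 libraries. The neighbours Trp53 and Ccng1, Ccng1 and Trp53inp1, Trp53inp1 and Phlda3, Phlda3 and Mdm2, Sesn1 and Trp63, and Trp63 and Zmat3 changed places in at least 1 library, so that these parts of the order did not exceed the spread between libraries.

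**Figure D1:**
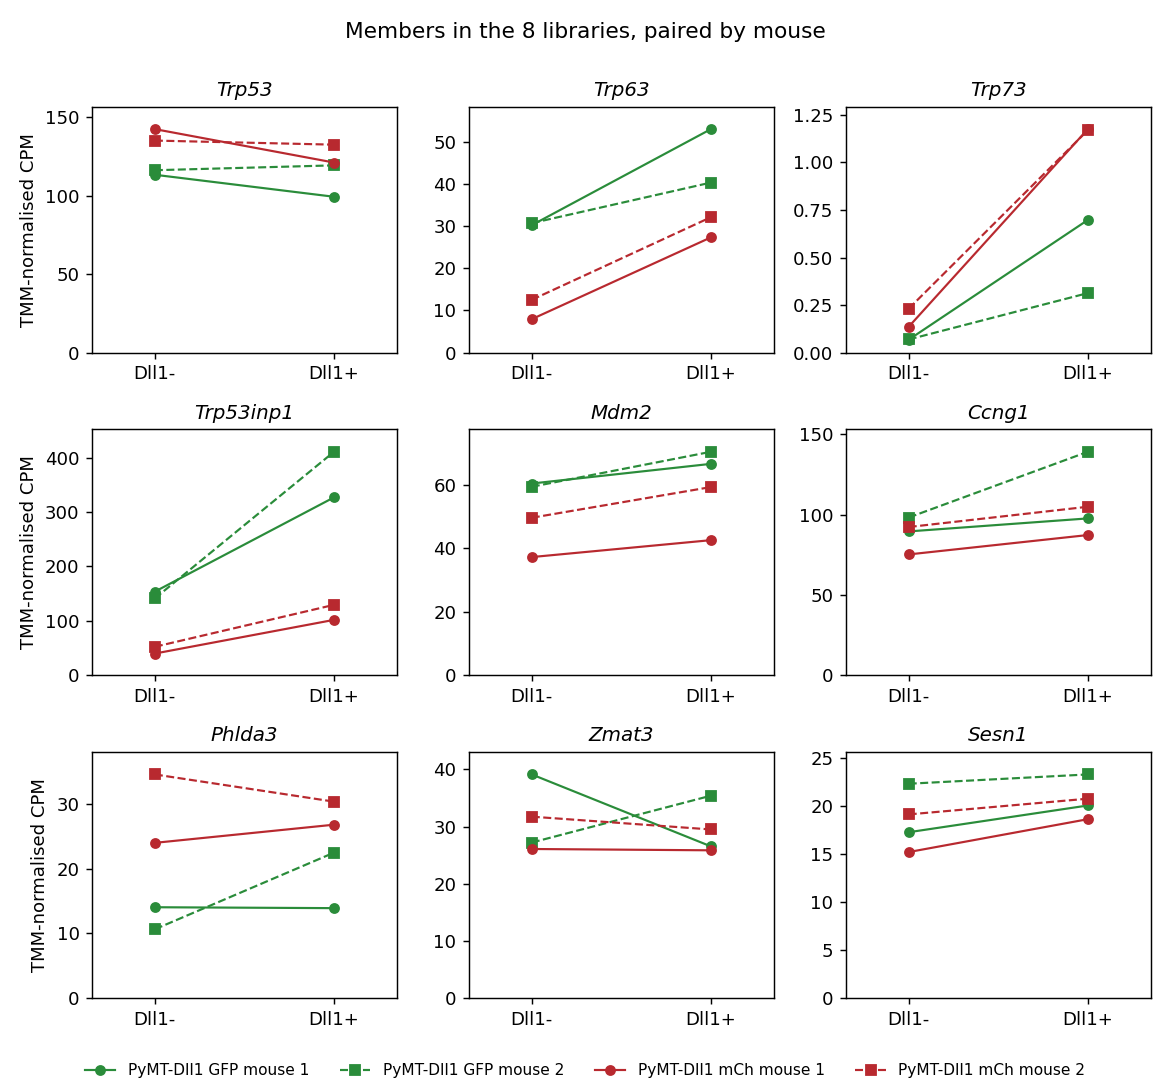
Level of each of the 9 members (TMM-normalised CPM, linear axes from 0) in the Dll1- and Dll1+ libraries; each line joins the 2 libraries of 1 mouse. Trp63, Trp73, Trp53inp1, Mdm2, Ccng1 and Sesn1 are higher at the Dll1+ end of all 4 lines, while the Trp53 lines stay between 99.4 and 142.5 CPM.

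Trp53 lies on chromosome 11 (69580359 to 69591873, plus strand, GRCm38). Its level was 113 CPM in Dll1- and 99.4 CPM in Dll1+ cells of GFP mouse 1, and 116 against 119 CPM in GFP mouse 2. In mCh mouse 1 it was 143 against 121 CPM, and in mCh mouse 2 it was 135 against 133 CPM. The Dll1- and Dll1+ libraries overlapped, and Dll1+ was the lower library in 3 of 4 mice. The log2 fold change of Dll1+ over Dll1- cells was -0.10 (SE 0.066, 4 mice), a fold of 0.931, and the highest level was 1.43 times the lowest. By that ratio the p53 mRNA was the steadiest of the 9 members. Protein level and p53 activity, which are set largely after transcription, were not measured.

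Trp63, on chromosome 16 (25683763 to 25892102, plus strand), was higher in Dll1+ cells of every mouse. Its level went from 30.2 CPM in Dll1- to 52.9 CPM in Dll1+ cells of GFP mouse 1 and from 30.7 to 40.3 CPM in GFP mouse 2. In the mCh mice it went from 7.94 to 27.3 CPM and from 12.5 to 32.1 CPM. The Dll1- libraries of the GFP mice overlapped with the Dll1+ libraries of the mCh mice, although within a reporter the Dll1+ libraries were above the Dll1- ones. The log2 fold change was 1.08 (SE 0.24) over 4 mice, 0.60 (SE 0.15) in the GFP mice and 1.58 (SE 0.15) in the mCh mice. The difference between these effects was 0.98 on the log2 scale (SE 0.21), with 2 mice per reporter. It was not called in edgeR's test (adjusted p = 0.16), but it was with DESeq2 and with no filter. Gene-level counts cannot tell the TA from the deltaN form.

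The summed level of basal markers was also higher in the Dll1+ library of each mouse. Over 7 markers it was 111 to 140 CPM in the Dll1- and 186 to 346 CPM in the Dll1+ libraries of the GFP mice, and 340 to 639 CPM against 1313 to 1463 CPM in the mCh mice. All 7 had counts in every library. In edgeR's test 3 of the 7 passed as higher and 0 as lower, against 6.98% and 7.04% of all genes. In bulk RNA of sorted cells, more cells of a type and more RNA per cell cannot be told apart. Single markers did not all follow the sum. In mCh mouse 2 the contractile genes Acta2 (213 CPM in Dll1- against 172 CPM in Dll1+ cells) and Myh11 (46.3 against 34.8 CPM) were lower in Dll1+ cells, while the keratins Krt5, Krt14 and Krt17 were higher. The part of basal cells in the Trp63 difference was not tested.

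Trp73, on chromosome 4 (154056253 to 154140208, minus strand), was close to the limit of detection in Dll1- cells. It had 2 counts in the Dll1- and 20 counts in the Dll1+ library of GFP mouse 1, and 2 against 14 counts in GFP mouse 2. In the mCh mice it had 17 against 77 counts and 7 against 65 counts. In CPM the 4 Dll1- libraries lay between 0.0682 and 0.231 and the 4 Dll1+ libraries between 0.313 and 1.18, so the groups did not overlap. Trp73 was the only member of the 9 with all Dll1+ libraries above all Dll1- libraries, an order that 2.74% of all genes tested showed. It passed the filter on low counts through the Dll1+ libraries, where it is high, so nothing is read from that share.

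The ratios of normalised counts, with exact 95% intervals that cover counting error only, were 10.2 (2.48 to 90.2) in GFP mouse 1 and 4.52 (1.04 to 40.9) in GFP mouse 2. They were 8.63 (5.06 to 15.6) in mCh mouse 1 and 5.06 (2.32 to 13.1) in mCh mouse 2. With the counts of the mice of a reporter summed, the ratio was 6.74 (2.40 to 26.1) in GFP and 7.58 (4.89 to 12.2) in mCh mice, and these intervals overlap widely. The fitted log2 fold change over 4 mice was 2.77 (SE 0.32), a value that depends on the prior count because 2 libraries had only 2 counts.

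Trp53inp1 encodes a stress-induced protein that takes part in p53-dependent cell death and in autophagy. It lies on chromosome 4 (11156431 to 11174379, plus strand). Its level was 154 CPM in Dll1- and 327 CPM in Dll1+ cells of GFP mouse 1 and 141 against 411 CPM in GFP mouse 2. In the mCh mice it was 40.02 against 102 CPM and 52.5 against 130 CPM. Within each reporter both Dll1+ libraries were above both Dll1- libraries, but the Dll1- libraries of the GFP mice were above the Dll1+ libraries of the mCh mice.

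The 4 mice gave Trp53inp1 folds of 2.13, 2.91, 2.55 and 2.47, and the log2 fold change was 1.32 (SE 0.084). It was 1.31 (SE 0.12) in GFP and 1.33 (SE 0.12) in mCh mice, with a difference of 0.01 (SE 0.17). Among the members that were higher in 4 of 4 mice, the spread between mice was largest for Trp63 (SD of the log2 differences 0.608) and Trp73 (0.529), against 0.185 for Trp53inp1 and 0.0533 for Mdm2.

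Mdm2, on chromosome 10 (117688875 to 117710758, minus strand), differed by little but in the same direction in each mouse. Its level was 60.4 CPM in Dll1- and 66.5 CPM in Dll1+ cells of GFP mouse 1, and 59.3 against 70.3 CPM in GFP mouse 2. In the mCh mice it was 37.2 against 42.5 CPM and 49.6 against 59.2 CPM. The libraries of the 2 Dll1 groups overlapped, because the mice differed more from each other than the cells within a mouse. The log2 fold change was 0.21 (SE 0.052), a fold of 1.16.

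Ccng1 encodes cyclin G1, a p53-induced partner of protein phosphatase 2A, and lies on chromosome 11 (40748552 to 40755311, minus strand). Its level was 89.6 against 97.6 CPM and 98.2 against 139 CPM in Dll1- and Dll1+ cells of the GFP mice, and 75.2 against 87.3 CPM and 92.3 against 105 CPM in the mCh mice. Sesn1, which encodes the mTORC1-restraining stress protein sestrin 1, lies on chromosome 10 (41809935 to 41908424, plus strand). Its level was 17.3 against 20.1 CPM and 22.4 against 23.3 CPM in the GFP mice, and 15.2 against 18.7 CPM and 19.2 against 20.8 CPM in the mCh mice. Both genes were higher in Dll1+ cells of 4 of 4 mice with overlapping groups, at log2 fold changes of 0.26 (SE 0.075) for Ccng1 and 0.17 (SE 0.072) for Sesn1.

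Phlda3 encodes a PH-domain protein that restrains Akt, and lies on chromosome 1 (135766119 to 135769136, plus strand). Its level was 14.1 against 13.9 CPM and 10.6 against 22.5 CPM in the GFP mice, and 24.02 against 26.8 CPM and 34.6 against 30.4 CPM in the mCh mice. It was higher in Dll1+ cells of 2 mice and lower in the other 2, and its log2 fold change of 0.25 (SE 0.22) became -0.01 without GFP mouse 2. Zmat3, which encodes an RNA-binding regulator of splicing, lies on chromosome 3 (32334792 to 32366014, minus strand). Its level was 39.1 against 26.5 CPM and 27.2 against 35.4 CPM in the GFP mice, and 26.1 against 25.9 CPM and 31.7 against 29.5 CPM in the mCh mice. Its log2 fold change was -0.07 (SE 0.15) and became 0.09 without GFP mouse 1, so neither gene had a direction that the mice shared.

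**Figure D2:**
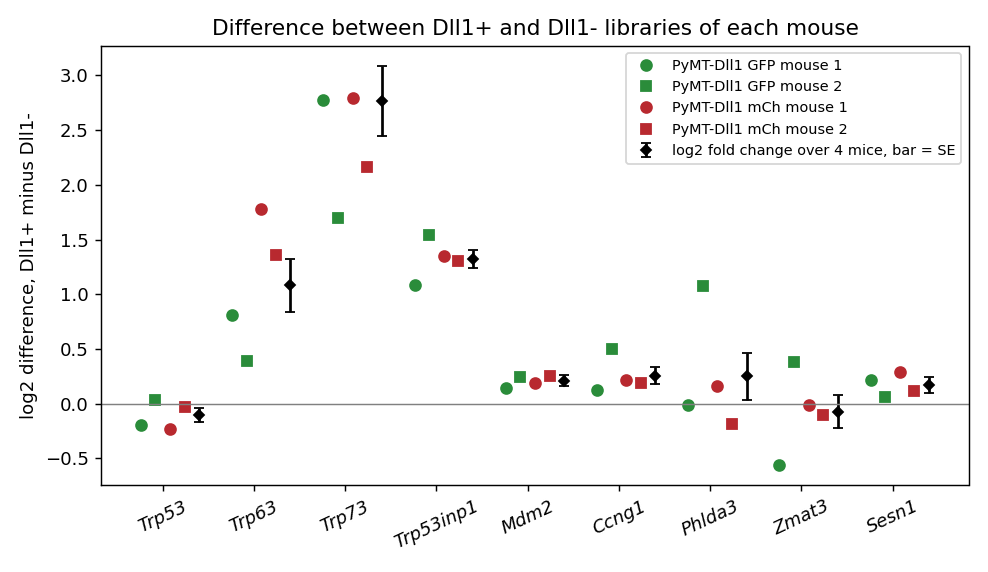
Dll1+ minus Dll1- library of each mouse in log2 CPM, with a prior count of 2 (green for GFP, red for mCh mice), and log2 fold change over the 4 mice with its SE (black) for each member. Trp63, Trp73, Trp53inp1, Mdm2, Ccng1 and Sesn1 lie above 0 in 4 of 4 mice.

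In all, 6 members were higher in Dll1+ cells of 4 of 4 mice and 0 were lower in 4 of 4, where 21.4% and 19.9% of the 18322 genes tested were so. All 9 members passed the filter on low counts, but Trp73, with 2 to 17 counts in the Dll1- libraries, passed through the Dll1+ libraries, where it is high, and it drops out where 10 counts are asked for in every library. A call on Trp73 is thus fixed in part by the filter. With the mouse as a block and an adjusted p under 0.05 (Benjamini-Hochberg over all genes tested, edgeR's quasi-likelihood test), 4 members were called higher and 0 lower, against 6.98% and 7.04% of all genes. The 4 were Trp53inp1, Trp73, Trp63 and Mdm2. Within a reporter, 2 members were called in the GFP mice and 3 in the mCh mice, against 9.13% and 11.8% of all genes, and for the difference between the reporters 0 members were called against 0.0710% of all genes (1 at an unadjusted p under 0.05, and 1, Trp63, with DESeq2). These members had been chosen on results of this kind, so nothing is read from the counts. The median log2 fold change was 0.25 over the members and -0.00068 over all genes.

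The set of members past the threshold changed with the mice in the fit, and nothing is read from it either. Without GFP mouse 1 or mCh mouse 2 it was Trp53inp1 and Trp73, without GFP mouse 2 also Trp63, and without mCh mouse 1, where Trp73 did not pass the filter, Trp53inp1 alone. DESeq2 called Ccng1, Mdm2, Trp53inp1 and Trp63 and gave no adjusted p for Trp73.

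Between the reporters, the same cells of the mCh and GFP mice were compared. The reporter line, the individual mice and the depth of the libraries cannot be told apart in this comparison. Trp53inp1 was lower in the mCh mice, at log2 fold changes of mCh over GFP of -1.68 (SE 0.19) in Dll1- and -1.67 (SE 0.19) in Dll1+ cells, and its 4 mCh libraries (40.02 to 130 CPM) lay below its 4 GFP libraries (141 to 411 CPM). The values of Mdm2 were -0.47 (SE 0.19) and -0.43 (SE 0.19), and it was called in neither comparison (edgeR adjusted p = 0.098 and 0.13). Its highest mCh library (59.24 CPM) was just below its lowest GFP library (59.34 CPM). Trp63 had values of -1.59 (SE 0.24) in Dll1- and -0.65 (SE 0.23) in Dll1+ cells, the latter not called (edgeR adjusted p = 0.073).

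Trp63 and the summed level of the basal markers did not go together between the reporters. Trp63 was lower in mCh than in GFP mice in both kinds of cells, while the summed level of the basal markers was higher in mCh mice. Of the 7 markers 3 were called higher in Dll1- cells, 5 were called higher in Dll1+ cells and 0 were called lower in either. Of all genes, 36.6% and 30.6% were called in these comparisons, in either direction, so nothing is read from the counts. Single markers differed in this. In Dll1- cells Acta2 had 191 and 213 CPM in the mCh against 15.9 and 12.2 CPM in the GFP libraries. Rgs5, one of the fibroblast markers, had 250 and 294 CPM against 12.0 and 7.49 CPM in the same libraries. Which cells the Acta2 RNA came from was not tested, so the sum is not a measure of basal cells alone. Oxtr, with 21.7 and 8.82 CPM against 12.7 and 14.5 CPM, had no shared direction. The keratins Krt5 and Krt14 were not called in Dll1- cells, at log2 fold changes of 1.405 and 0.385 (edgeR adjusted p = 0.071 and 0.68). Trp73 had summed counts of 24 in mCh against 4 in GFP Dll1- cells (ratio of normalised counts 2.25, exact 95% interval 0.773 to 8.92). In Dll1+ cells it had 142 against 34 (2.53, 1.73 to 3.80). These intervals cover counting error only and not the spread between mice. Trp73 was called in neither comparison (edgeR adjusted p = 0.18 in Dll1- and 0.078 in Dll1+ cells).

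The mCh libraries were above the GFP libraries for Trp53 and Phlda3. In edgeR's test Trp53 was called in neither kind of cells (adjusted p = 0.10 in Dll1- and 0.19 in Dll1+ cells). Phlda3 was called in Dll1- but not in Dll1+ cells (adjusted p = 0.017 and 0.12). The log2 fold changes of Trp53 were 0.27 (SE 0.11) in Dll1- and 0.21 (SE 0.11) in Dll1+ cells, with 121 to 143 CPM in the 4 mCh against 99.4 to 119 CPM in the 4 GFP libraries. Those of Phlda3 were 1.24 (SE 0.29) and 0.65 (SE 0.28), with 24.02 to 34.6 CPM against 10.6 to 22.5 CPM. Ccng1, Zmat3 and Sesn1 had overlapping libraries and log2 fold changes between -0.30 and -0.14.

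In total, 2 members had all mCh libraries above all GFP libraries and 2 had them below, where 43.4% of all genes did not overlap. At an adjusted p under 0.05, 3 members were called in Dll1- cells (Phlda3 higher, Trp53inp1 and Trp63 lower) and 1 in Dll1+ cells (Trp53inp1, lower), against 36.6% and 30.6% of all genes. Leaving out GFP mouse 1 or GFP mouse 2 left 0 of all genes called in either comparison, and without mCh mouse 2 the call in Dll1+ cells covered 3 members (Mdm2, Trp53inp1 and Trp63).

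**Figure D3:**
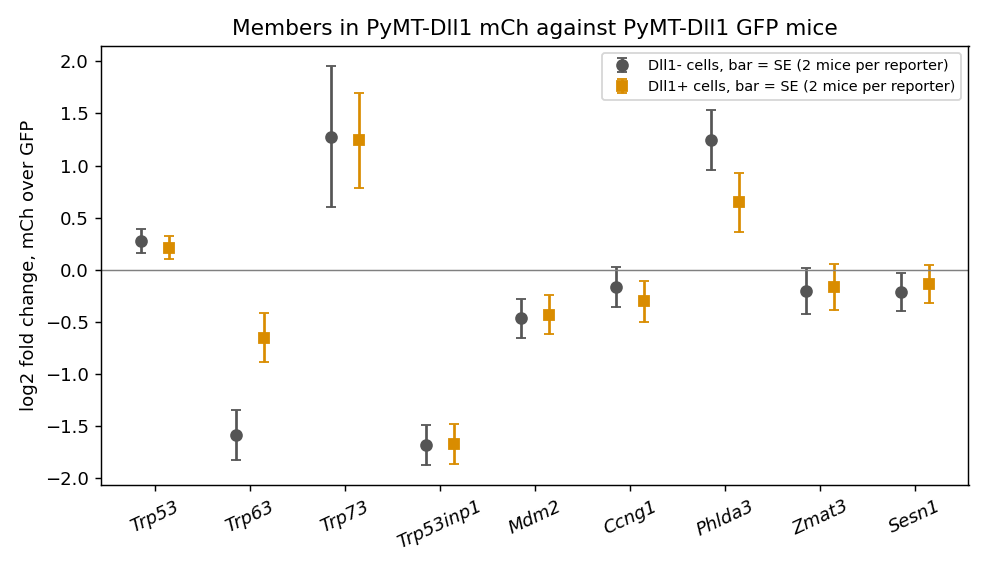
Log2 fold change of mCh over GFP mice for each member in Dll1- (grey circles) and Dll1+ cells (orange squares), with SE. Trp53inp1 lies at -1.68 and -1.67, Trp73 and Phlda3 lie above 0, and the Trp63 values are -1.59 and -0.65.

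Markers of other cell types moved with this comparison. All 9 fibroblast markers were higher in mCh than in GFP Dll1- cells in edgeR's test and 7 of 9 in Dll1+ cells. Of all genes, 36.6% and 30.6% were called in these 2 comparisons, in either direction. Of 10 immune markers, 8 were tested. All 8 were higher in Dll1- cells and 5 in Dll1+ cells. All 7 endothelial markers were higher in Dll1- cells and 2 in Dll1+ cells (summed level 41.0 to 46.7 CPM in the GFP libraries, 142 to 325 CPM in mCh Dll1- and 81.9 to 85.1 CPM in mCh Dll1+ libraries). Of 6 erythroid markers, 5 were tested and 4 were higher in each comparison, with summed levels of 6.03 to 15.0 CPM in the GFP and 34.8 to 180 CPM in the mCh libraries. None of these markers was at 0 in all libraries, and within the mCh mice the sums were lower in Dll1+ than in Dll1- cells. Their part in the members' levels was not tested.

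The pattern of the 3 family genes over the 8 libraries was compared with that of every gene tested, by the Pearson correlation of log2 CPM. These values describe 8 libraries from 4 mice that share reporter and sort, so that a high value is common. The genes most like Trp53 were Rrp9 (r = 0.98), Thoc5 (r = 0.98) and Pes1 (r = 0.97). Those most like Trp63 were Dcaf6, Agrn and Zfp629 (each r = 0.98), and those most like Trp73 were Tent5b (r = 0.98), the pseudogene Ywhaq-ps1 (r = 0.97) and Cyp26a1 (r = 0.97). Among the members themselves, Trp63 was most like Trp53inp1 (r = 0.93) and had a value of -0.83 with Trp53.

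A wider list of 41 other p53 target genes was examined in the same fit. It and the lists below were drawn up with earlier results of these data known. The shares called are therefore a description and support nothing about the lists. The test covered 40 of them and called 8 higher and 3 lower in the Dll1+ libraries (27.5%, against 14.0% of all genes), and the list's median log2 fold change was 0.04. Epha2, a receptor tyrosine kinase, had 98.03 to 192 CPM in Dll1- and 137 to 408 CPM in Dll1+ libraries and a difference of 0.76 on the log2 scale (SE 0.11; adjusted p = 0.012 in edgeR's quasi-likelihood test). The kinase Plk3 had a log2 fold change of 0.60 (SE 0.094, edgeR adjusted p = 0.016). The antiproliferative gene Btg2 (0.54, SE 0.087) and Sfn (0.51, SE 0.079), which encodes the checkpoint protein 14-3-3 sigma, had edgeR adjusted p values of 0.017 and 0.016. Each of these 4 was higher in 4 of 4 mice.

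Steap3, a ferrireductase of endosomes, moved the other way, with 43.8 to 126 CPM in Dll1- and 18.5 to 43.7 CPM in Dll1+ libraries and a log2 fold change of -1.16 (SE 0.15, edgeR adjusted p = 0.012). Cdkn1a, the gene of the cell-cycle inhibitor p21, was picked for mention with its values in view. It had 75.4 to 124 CPM in Dll1- and 128 to 231 CPM in Dll1+ libraries. It was higher in 4 of 4 mice, at a log2 fold change of 0.62 (SE 0.27), but its edgeR adjusted p was 0.19. Spata18, with at most 67 counts in a library, did not pass the filter.

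The count of 11 for these targets rested on single mice. It was 0 without GFP mouse 1, 2 without GFP mouse 2 and 3 without mCh mouse 1, against 13 without mCh mouse 2.

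**Figure D4:**
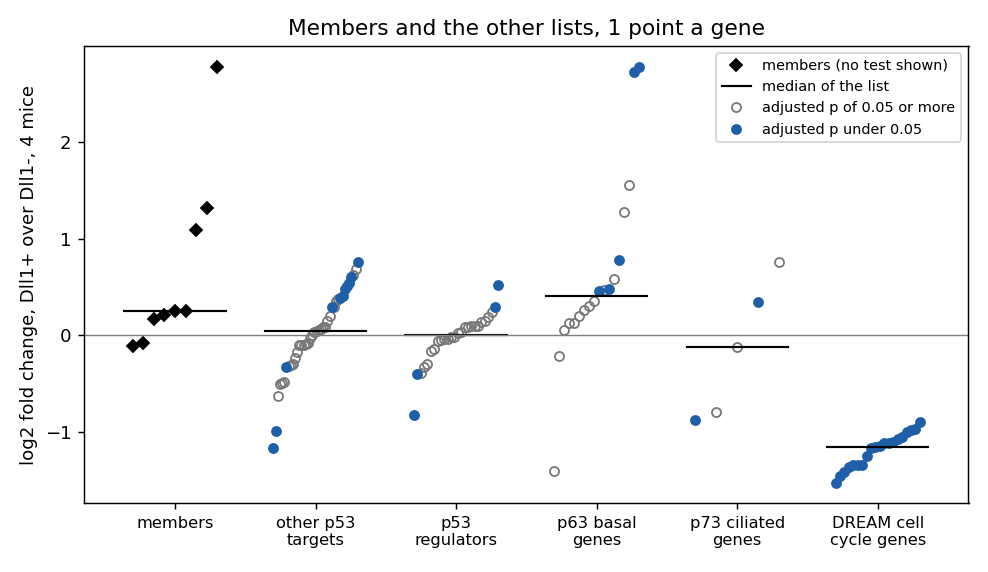
Log2 fold change of Dll1+ over Dll1- cells (4 mice), 1 point a gene, for the members (black diamonds, no test shown) and 5 other lists; filled blue points passed an adjusted p of 0.05 in edgeR's test, open points did not, and bars mark the medians. The other p53 targets spread on both sides of 0 with a median of 0.04, and all 20 DREAM cell cycle genes lie below 0.

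Genes that control p53 were called about as often as other genes. Of 26 regulators, the test called 2 higher and 2 lower in the Dll1+ libraries (15.4%, against 14.0% of all genes in either direction), with a median log2 fold change of 0.0051. Trp53bp2, a p53-binding cofactor of the ASPP family, had a log2 fold change of 0.52 (SE 0.071, edgeR adjusted p = 0.011) and the Mdm2 relative Mdm4 of 0.29 (SE 0.062, edgeR adjusted p = 0.035). The checkpoint kinase Chek1 fell by 0.82 on the log2 scale (SE 0.12, edgeR adjusted p = 0.013) and the damage kinase Atm by 0.40 (SE 0.089, edgeR adjusted p = 0.038). Chek2 had a log2 fold change of -0.32 (SE 0.10), with an edgeR adjusted p of 0.085. The count of 4 was 1 without GFP mouse 1, 2 without GFP mouse 2 and 0 without mCh mouse 1.

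Between the reporters more of all genes were called, the regulators among them. In Dll1- cells 2 regulators were higher and 12 lower in the mCh mice (53.8%, against 36.6% of all genes), with a median log2 fold change of -0.40 against 0.01 over all genes. In Dll1+ cells 2 were higher and 10 lower (46.2%, against 30.6% of all genes). Mdm4 was among them, at a log2 fold change of -1.49 in Dll1- cells (edgeR adjusted p = 0.00079), as was Atm at -1.37 (edgeR adjusted p = 0.0013).

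Of 18 genes of basal cells that p63 is known to control, 5 passed the test as higher in the Dll1+ libraries and 0 as lower (27.8%, against 14.0% of all genes), with a median log2 fold change of 0.41. The hemidesmosome collagen Col17a1 had 2.05 to 8.65 CPM in Dll1- and 8.41 to 82.7 CPM in Dll1+ libraries and a log2 fold change of 2.72 (SE 0.22, edgeR adjusted p = 0.0063). The basal keratin Krt5 had a log2 fold change of 2.77 (SE 0.25, edgeR adjusted p = 0.0073). Lamb3, a chain of laminin-332, had a log2 fold change of 0.78 (SE 0.15, edgeR adjusted p = 0.031). The integrin Itga3 (0.48, SE 0.065) and the adhesion protein Nectin1 (0.46, SE 0.084) had edgeR adjusted p values of 0.012 and 0.023. Without GFP mouse 1 the count was 3. The growth factor receptor Fgfr2, singled out with its values in view, went the other way. It had 21.7 to 46.7 CPM in Dll1- and 6.24 to 22.9 CPM in Dll1+ libraries, was lower in 3 of 4 mice and had a log2 fold change of -1.40 (SE 0.44, edgeR adjusted p = 0.10). DESeq2, and edgeR without mCh mouse 1, called it lower.

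Within a reporter, 3 of these p63-linked genes (16.7%, against 9.13% of all genes) were higher in the GFP mice and 11 (61.1%, against 11.8%) in the mCh mice, and 0 were lower in either. For the difference between the reporters 0 of the 18 had an adjusted p under 0.05 in edgeR's test, 7 had an unadjusted p under 0.05 and DESeq2 called 1, while the difference was above 0 for 18 of 18, with a median of 0.51 against 0.05 over all genes. Between mCh and GFP mice, 0 were called higher and 5 lower in Dll1- cells (27.8%, against 36.6% of all genes), at a median of 0.098. In Dll1+ cells 3 were called higher and 1 lower (22.2%, against 30.6% of all genes), at a median of 0.55. Krt5 and Krt14 are in this list and among the basal markers given beside Trp63, so the 2 lists are not independent.

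Genes of the multiciliated programme linked to p73 did not share a direction. Of 6 listed, 5 were tested. Rfx3, a transcription factor of ciliary genes, had a log2 fold change of 0.34 (SE 0.082, edgeR adjusted p = 0.046), and Myb, which acts early in the programme, fell by 0.87 (SE 0.17, edgeR adjusted p = 0.026). Foxj1 (0.76, SE 0.30), Ccno (-0.78, SE 0.31) and Rfx2 (-0.12, SE 0.13) had log2 fold changes with edgeR adjusted p values between 0.15 and 0.57. Mcidas had at most 2 counts in a library. Leaving out any 1 mouse left 0 of these genes called.

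Genes repressed by the DREAM complex, which acts downstream of p53 and p21 to silence cell-cycle genes, were lower in Dll1+ cells throughout. All 20 listed genes were called lower (100%, against 7.04% of all genes), with a median log2 fold change of -1.15. The part of p53, p21 or DREAM in this was not tested. The examples with the lowest p were Rrm2 (-1.52, SE 0.076), Plk1 (-1.45, SE 0.095), Aurka (-1.14, SE 0.076), Mybl2 (-1.11, SE 0.079) and Foxm1 (-1.10, SE 0.080), each with an edgeR adjusted p of 0.0053 and each lower in 4 of 4 mice. Between the reporters, all 20 had log2 fold changes above 0 for mCh over GFP in Dll1- as in Dll1+ cells, at medians of 0.77 and 1.12. In each comparison 19 were called higher (95.0%, against 36.6% and 30.6% of all genes in either direction).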

How the data were processed

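RNA was sequenced from Dll1+ and Dll1- tumor cells of 4 mice with a stranded kit. The authors quantified reads with salmon on GENCODE M20 transcripts (GRCm38.p6), combined transcripts per gene by tximport and deposited the estimated counts, whole and not normalized, for 53697 genes. Exon lengths and coordinates came from a later GENCODE release on GRCm38, in which 53668 genes matched by identifier, all members included.

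Differences were tested with R 4.3.3 and edgeR 4.0.16 (TMM, filterByExpr on Dll1 status, robust quasi-likelihood F test, Benjamini-Hochberg over 18322 genes, threshold 0.05). The terms of the main model, Dll1 status and mouse, are those of the study's methods. A second held the mouse and a Dll1 effect per reporter. Another, of the 4 groups without the mouse, compared mCh with GFP. Log2 CPM used a prior count of 2. Pairs came from the mouse named in the labels. The deviations of same-mouse libraries from the means of their groups had a correlation of -0.0472 in GFP and 0.554 in mCh mice. With the mouse in the model, p-values measure the spread between mice of the Dll1 difference, with 2 mice per reporter. In the comparison of mCh with GFP the 2 libraries of a mouse were counted as separate, which ignores the correlation in the mCh mice. Depth was 27301396 to 123907626 counts per library.

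The members and lists were chosen with earlier results of these data known. Named genes were the members, Dll1, the 5 genes with the lowest p of each list, the 3 genes most like each family gene, and overlapping neighbours. Cdkn1a, Fgfr2, single markers and the untested Spata18 and Mcidas are named outside this rule, with their values known. Alternatives were RLE size factors, DESeq2 1.42.0, no filter or 10 counts in every library, no replicate block or a block on the replicate number, reporter or Dll1 status fitted alone, and each mouse left out. Sequences are RefSeq's. Scripts were tested on simulated data. Other data types of the study were not used here.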

Additional observations from a re-analysis of the deposited data

How the results depend on the processing

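No value changed direction past the threshold under any alternative run, and of 254 alternative values of single members 248 moved by less than the spread. Counts of members called between Dll1+ and Dll1- cells moved from 4 to 2 with no filter. In the GFP mice they moved from 2 to 4 with no filter, to 1 with 10 counts in every library and to 1 with no replicate block. In the mCh mice they moved from 3 to 0 with the reporter fitted alone, where 0 of all genes were called. For the difference between the reporters they moved from 0 to 1 (Trp63) with DESeq2 and with no filter. For mCh against GFP in Dll1+ cells they moved from 1 to 2 with DESeq2, to 4 with no filter and to 2 with Dll1 status fitted alone. DESeq2 called 17 in place of 11 other p53 targets and 11 in place of 5 p63 basal genes (10 higher and 1, Fgfr2, lower), and without the replicate block these were 3 and 3. The p73 ciliated genes gave 1 in place of 2 with no filter and with no replicate block. The block on the replicate number gave 4 in place of 3 members in Dll1- and 1 in Dll1+ cells. The fit without the replicate block over 4 mice called 3 members.

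With 1 mouse left out the counts ranged from 1 to 3 for the members over 4 mice, 0 to 2 in GFP mice, 2 to 3 in mCh mice, 0 to 0 for the difference, 0 to 4 and 0 to 3 for mCh against GFP in Dll1- and Dll1+ cells, 0 to 13 for other p53 targets, 0 to 5 for p53 regulators, 3 to 5 for p63 basal genes, 0 to 0 for p73 ciliated genes and 17 to 20 for DREAM genes. In these fits a reporter left with 1 mouse is assumed to vary like the other. The causes were not tested. With 2 to 20 Trp73 counts in the GFP libraries, depth limits the precision of that gene.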
